A study of Mus musculus with 56 samples.

Results

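The livers of 8 DIO-MASH mice dosed with low-dose zalfermin were compared with those of 8 DIO-MASH mice dosed with vehicle, which are 16 of the 56 mice in the series. The mice were chosen by their labels (treatment zalfermin_low or NASHVehicle, diet AMLN) and matched by sample number to the columns of the deposited gene counts. All 16 were male C57BL/6J mice that arrived at 5 to 6 weeks of age and ate the AMLN diet (high in fat, with added fructose and cholesterol) for 36 weeks before treatment, a regimen that gives obesity and metabolic dysfunction-associated steatohepatitis (MASH). Only mice with steatosis and fibrosis in a liver biopsy entered the study, so both groups hold animals with established disease. Mice then received a daily subcutaneous injection for 8 weeks, of vehicle or of zalfermin at 0.05 mg/kg, and 15 to 20 mg of liver was taken for RNA sequencing. No transgene or gene deletion is involved, and each library is 1 mouse. Mice are numbered here from 1 to 8 within a group in the order of the samples in the repository, and equal numbers do not pair mice.

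Zalfermin is a long-acting analog of fibroblast growth factor 21 (FGF21), a hormone that the liver secretes under nutrient stress. FGF21 acts through FGF receptors bound to the co-receptor beta-klotho, encoded by Klb, and is known for raising energy expenditure, lowering liver fat and shifting the preference for sugar and protein. The liver is the main site of amino acid breakdown and the urea cycle, makes bile acids from cholesterol and secretes most plasma proteins.

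Genes with adjusted p under 0.05 in edgeR's quasi-likelihood test are called changed. Of 14105 genes tested, 66 were called (0.468%), of which 59 were higher with low-dose zalfermin (0.418%) and 7 were lower (0.0496%). The split depended on the fit, as voom with quality weights called 205 higher and 100 lower, DESeq2 201 higher and 10 lower, and edgeR on the 16 mice alone 111 higher and 34 lower. At an unadjusted p under 0.05, 924 genes were higher (6.55%) and 669 were lower (4.74%). The 59 rises were small to moderate, with folds from 1.22 to 3.49 and a median of 1.48. They include enzymes of amino acid breakdown, the urea cycle, and bile acid and steroid metabolism, which are described by gene list, and enzymes of the methionine cycle and of pyrimidine breakdown, which were grouped after their values were seen. For 32 of the 59 rises every low-dose zalfermin mouse lay above every vehicle mouse, and for 2 of the 7 falls every one lay below. Over all genes tested, groups did not overlap for 58 genes that were higher (0.411%) and 11 that were lower (0.078%).

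One mouse stood apart in the low-dose zalfermin group. Across genes, which are not independent replicates, mouse 1 (sample number 4403) had a mean Spearman correlation of 0.978 with the other 7 mice of its group, whereas the other 7 had values from 0.984 to 0.988. Its depth was not low, at 16013740 counted reads, and the 16 mice ranged from 7393654 to 16434379. Mouse 1 was the most extreme mouse of its group in the direction of the change for 53 of the 66 called genes. These genes were called with mouse 1 included, which favors genes where it is extreme, so that count is no separate evidence that it stood apart. In mouse 1 the summed level of 10 hepatocyte markers, which include the called gene Cps1, was the highest of the 16 mice at 96660 CPM. The other 7 low-dose zalfermin mice had 73480 to 94030 CPM and the vehicle mice 66650 to 91980 CPM. The summed level of 19 markers of lipid-associated and monocyte-derived macrophages was the lowest at 260.8 CPM (other 7 mice, 651 to 1007 CPM; vehicle, 834 to 1426 CPM), and that of 16 stellate cell and myofibroblast markers was the lowest at 530.4 CPM (other 7 mice, 820.4 to 1074 CPM; vehicle, 897 to 1244 CPM). In bulk liver RNA, fewer cells of a type and less RNA per cell cannot be told apart.

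Without mouse 1, 6 genes were called of 14104 tested (0.0425%), among them Hpd, Serpina6, Ttc38, Cyp17a1 and Unc119, and all 6 were among the 66. The estimates moved less than the calls did. All 66 genes kept their direction without mouse 1, the median log2 fold change of the 59 rises went from 0.56 to 0.50 and that of the 7 falls from -0.87 to -0.78, and the highest unadjusted p of the 66 was 0.00532. The 66 genes were chosen in a fit that held the same other 15 mice. That choice favors a kept direction and a low unadjusted p, so these values are no independent check. With each of the other 15 mice left out in turn, 21 to 95 genes were called, and 21 to 65 of the 66 were among them. A fit with limma's voom and sample quality weights, which gave mouse 1 a weight of 0.412 and the other 15 mice weights of 0.585 to 1.97, called 65 of the 66, and called 65 of them again with mouse 1 left out. The 6 genes called without mouse 1 were called in all 16 fits that left out 1 mouse each, and 9 more were called in every one of those fits except that without mouse 1 (Sult1d1, Cnmd, Cps1, Slc29a1, Gpld1, Ctps, Sardh, Ces1c and Fbxw9).

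**Figure D1:**
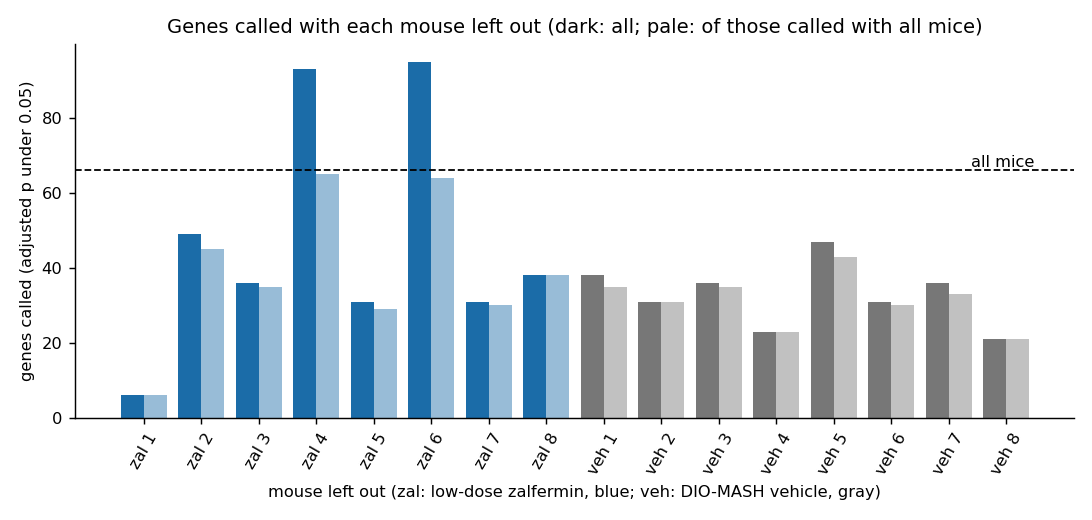
Number of genes called (y axis, adjusted p under 0.05) when each of the 16 mice was left out (x axis, 8 low-dose zalfermin mice in blue and 8 DIO-MASH vehicle mice in gray). Dark bars count all called genes, pale bars those among the 66 called with all mice (dashed line), and the lowest bars are those without low-dose zalfermin mouse 1, with 6 genes.

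Hpd (4-hydroxyphenylpyruvate dioxygenase, ENSMUSG00000029445, on the minus strand of GRCm38 chr5:123171807-123182727) is an enzyme of tyrosine breakdown. Its level was 1084 to 1354 CPM (median 1191) in vehicle mice and 1498 to 3178 CPM (median 2283) in treated mice, so every treated mouse lay above every vehicle mouse. The log2 fold change was 0.92 ± 0.17 (SE; adjusted p = 0.0039). Without mouse 1 the Hpd estimate was 0.83 (adjusted p = 0.029). The medians in chow-fed vehicle mice and in high-dose zalfermin mice (0.2 mg/kg) were 3079 and 3422 CPM.

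Cyp17a1 (minus strand of chr19:46667165-46673172, ENSMUSG00000003555) encodes the 17-alpha-hydroxylase and 17,20-lyase of steroid hormone synthesis. Vehicle mice had 7.11 to 27 CPM (median 10.9) and treated mice 33.2 to 75.2 CPM (median 48.4), so the lowest treated mouse was above the highest vehicle mouse. The fold of 3.49 (log2 1.80 ± 0.36, adjusted p = 0.0117) was the largest rise among the 66 genes. It did not rest on mouse 1, which had 47.2 CPM, near the group median, and the estimate without it was 1.82 (adjusted p = 0.0296). Chow-fed mice had a median of 9.83 CPM, close to that of vehicle mice, and high-dose zalfermin mice one of 74.8 CPM. Of the 66 genes, only Cyp17a1, Fbxw9 and Elovl2 did not pass in chow-fed against DIO-MASH vehicle mice in edgeR (adjusted p = 0.419, 0.156 and 0.25). The others passed there in the direction seen with low-dose zalfermin, as did Gnmt (log2 fold change 2.41), Cps1 (1.54) and Limk1 (-2.93). The same vehicle mice enter both comparisons, and the 66 genes were chosen with them, which favors a shared direction, so this is no independent check. The share of all tested genes that passed for chow is not given here, so the count is not shown to be particular to the 66. With DESeq2, the study reported more changed genes for chow-fed mice than for any treatment against this vehicle group.

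Serpina6 (ENSMUSG00000060807, minus strand of chr12:103646630-103657212) encodes the corticosteroid-binding globulin of plasma. It had 145 to 356 CPM (median 245) in vehicle mice and 328 to 543 CPM (median 460.1) in treated mice. The groups overlapped by the lowest treated mouse, mouse 4, and the log2 fold change was 0.90 ± 0.15 (adjusted p = 0.0011), and 0.90 without mouse 1 (adjusted p = 0.0049). Ttc38 (ENSMUSG00000035944, plus strand of chr15:85832306-85858822), a tetratricopeptide repeat gene, had 67.8 to 102 CPM (median 93) in vehicle mice and 113 to 160.1 CPM (median 128) in treated mice, with no overlap and a log2 fold change of 0.54 ± 0.09 (adjusted p = 0.0011; without mouse 1, 0.49, adjusted p = 0.00784). Unc119 (ENSMUSG00000002058, plus strand of chr11:78343482-78349164), which encodes a lipid-binding chaperone of myristoylated proteins, was the only one of the 6 that fell. Vehicle mice had 11.9 to 23.8 CPM (median 17.1) and treated mice 5.29 to 10.6 CPM (median 9.68), every treated mouse below every vehicle mouse. Its log2 fold change was -0.87 ± 0.16 (adjusted p = 0.00715), and -0.78 without mouse 1 (adjusted p = 0.0368).

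**Figure D2:**
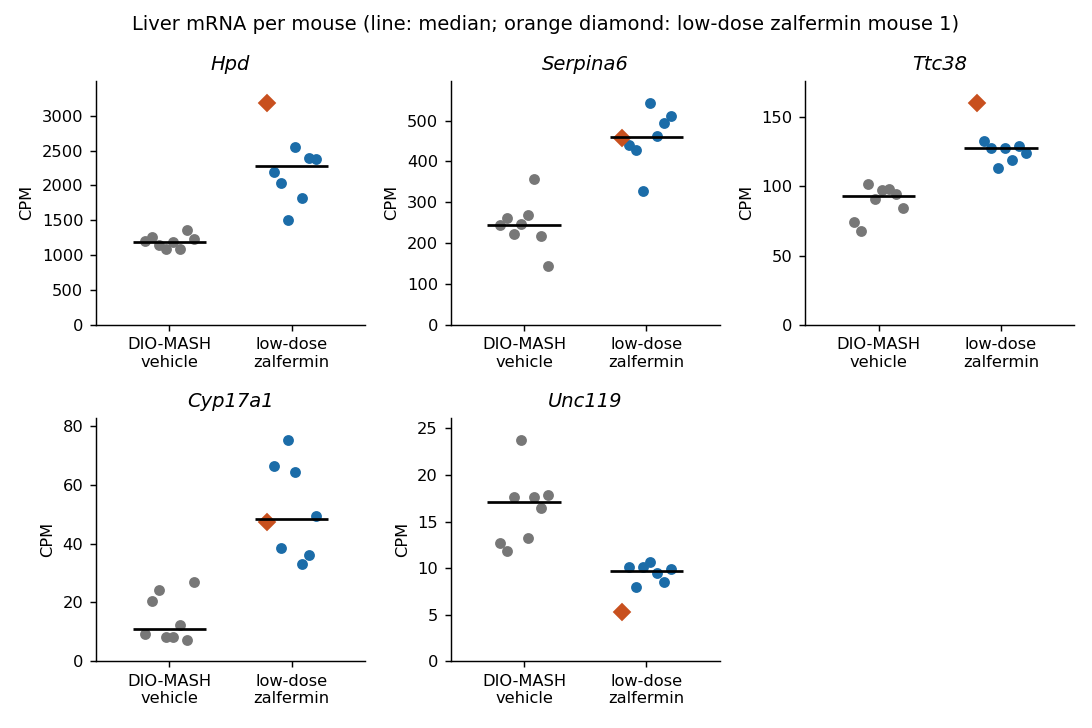
Level in CPM (y axis, counts scaled to a common normalized library size) of 5 genes called with and without low-dose zalfermin mouse 1, in each of 8 DIO-MASH vehicle mice (gray) and 8 low-dose zalfermin mice (blue, mouse 1 as an orange diamond), with the group median as a line. The groups are separate for Hpd, Ttc38, Cyp17a1 and Unc119, and for Serpina6 they overlap.

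Among the gene lists, amino acid breakdown held the most calls. Of 51 enzymes of transamination and amino acid breakdown tested, 9 rose and 0 fell. The median log2 fold change was 0.38, and 49 of the 51 estimates were above 0, beside a median of -0.02 over all genes. Without mouse 1 the median was 0.31 and 2 of the 51 were called.
A further called enzyme of tyrosine breakdown was Hgd (homogentisate dioxygenase), at 493 to 675 CPM (median 544) in vehicle and 697 to 999 CPM (median 828) in treated mice, with no overlap and a log2 fold change of 0.53 ± 0.12 (adjusted p = 0.0159; without mouse 1, 0.49, adjusted p = 0.1). Fah, the last enzyme of that pathway, had an estimate of 0.36 with adjusted p = 0.0527, just outside the threshold.

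Oat, Got1 and Gls2 of the same list also rose. Oat (ornithine aminotransferase) had 399 to 655 CPM (median 554) in vehicle mice and 756 to 1667 CPM (median 1018) in treated mice, with no overlap. Its log2 fold change was 0.996 ± 0.21 (adjusted p = 0.0157), and 0.87 without mouse 1 (adjusted p = 0.101). Got1, the cytosolic aspartate aminotransferase, went from a median of 134 CPM (highest vehicle mouse 195) to 264 CPM (lowest treated mouse 195), a log2 fold change of 1.01 ± 0.23 (adjusted p = 0.0246; without mouse 1, 0.90, adjusted p = 0.142). Liver glutaminase, Gls2, and the glutamine transporter Slc38a3 also rose, by log2 0.90 ± 0.22 and 0.65 ± 0.14 (adjusted p = 0.0429 and 0.0157). Neither was called without mouse 1 (adjusted p = 0.231 and 0.1). For Gls2 mouse 1 had 401 CPM and the other 7 treated mice 181 to 252 CPM.

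In the urea cycle, 2 of 8 tested genes rose and all 8 estimates were above 0, with a median of 0.46, or 0.38 without mouse 1, when 0 of the 8 were called. Cps1, the carbamoyl phosphate synthetase that starts the cycle, had 1471 to 2647 CPM (median 1724) in vehicle mice and 2595 to 5919.6 CPM (median 3385) in treated mice. The lowest treated mouse lay just below the highest vehicle mouse, and mouse 1 lay far above the other 7 treated mice, whose highest level was 3725 CPM. The log2 fold change of Cps1 was 0.98 ± 0.20 (adjusted p = 0.0117), and 0.84 without mouse 1 (adjusted p = 0.0882). Asl (argininosuccinate lyase) had 224 to 426 CPM (median 295) and 367 to 640.1 CPM (median 471), a log2 fold change of 0.67 ± 0.15 (adjusted p = 0.0168; without mouse 1, 0.60, adjusted p = 0.104). Ass1, Otc and Arg1, the other core enzymes, had estimates of 0.57, 0.47 and 0.44 that did not pass (adjusted p = 0.0923, 0.0899 and 0.181).

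A set of methionine cycle and one-carbon enzymes was also called. They were grouped after their values were seen, so no count is given for them as a group, and most are also counted in other lists. Mat1a, Gnmt and Cth are among the 9 calls of the amino acid list. Shmt1 and Mthfd1 belong to the nucleotide synthesis list, and Shmt2 to the list of ATF4 targets and serine synthesis. Mat1a makes S-adenosylmethionine, Gnmt uses it to methylate glycine, Sardh breaks the product down again, and Cth ends the route from homocysteine to cysteine. Mat1a had 1806 to 3088 CPM (median 2479) in vehicle mice and 3262 to 3799.5 CPM (median 3501) in treated mice, with no overlap and a log2 fold change of 0.48 ± 0.11 (adjusted p = 0.0343). Gnmt had 518 to 873 CPM (median 631) and 744 to 1829.5 CPM (median 1106), with a log2 fold change of 0.83 ± 0.18 (adjusted p = 0.0165). Its groups overlapped, and mouse 1 was again the highest. Sardh (0.61 ± 0.13, adjusted p = 0.0157) and Cth (0.79 ± 0.19, adjusted p = 0.0339) did not overlap between groups. The folate enzymes Mthfd1 (0.46 ± 0.10), Shmt1 (0.41 ± 0.10) and Shmt2 (0.32 ± 0.07) and the sulfite oxidase Suox (0.51 ± 0.13) rose as well (adjusted p = 0.0157, 0.0429, 0.023 and 0.0429). Without mouse 1 none of these 8 genes was called, at estimates of 0.46, 0.71, 0.51, 0.69, 0.39, 0.35, 0.29 and 0.45 in the order named.

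The 3 consecutive enzymes of pyrimidine breakdown were called together, and this group too was formed after the values were seen. Dpyd starts the route and had 289 to 455 CPM (median 345) in vehicle mice and 399 to 849 CPM (median 513) in treated mice, with a log2 fold change of 0.63 ± 0.14 (adjusted p = 0.022). Dpys, the next step, had 181 to 229 CPM (median 194) and 231 to 327 CPM (median 257), a smaller change (0.41 ± 0.09, adjusted p = 0.0223) with no overlap. Upb1, the last step, rose by 0.38 ± 0.10 (adjusted p = 0.0429). The nucleoside transporter Slc29a1 rose by 0.49 ± 0.10 (adjusted p = 0.0125). The highest Dpyd level was that of mouse 1, and the other 7 treated mice had at most 591 CPM. Without mouse 1, Dpyd, Dpys, Upb1 and Slc29a1 had estimates of 0.51, 0.36, 0.32 and 0.44. None of them was called then (adjusted p = 0.163, 0.131, 0.232 and 0.0851). In the opposite direction, Ctps, the CTP synthase of pyrimidine synthesis, had 11 to 17.3 CPM (median 12.6) in vehicle mice and 5.29 to 10.6 CPM (median 6.7) in treated mice. Every treated mouse lay below every vehicle mouse, with a log2 fold change of -0.91 ± 0.19 (adjusted p = 0.0133), and -0.86 without mouse 1 (adjusted p = 0.0769). In the list of 28 nucleotide synthesis genes, 2 rose (Shmt1 and Mthfd1), 1 fell (Ctps), and the median was 0.02.

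Bile acid and steroid enzymes made up the next group. Of 16 bile acid synthesis genes tested, 3 rose and 0 fell, with a median log2 fold change of 0.27, or 0.20 without mouse 1, when 0 were called. Akr1d1 reduces the steroid ring in bile acid synthesis and had 57.6 to 132 CPM (median 92) in vehicle mice and 134 to 224 CPM (median 154) in treated mice, with no overlap and a change of 0.81 ± 0.17 (adjusted p = 0.0157). Cyp2c70, which makes the muricholic acids of rodents, rose by 0.90 ± 0.22 (adjusted p = 0.0411), and Slc27a5, which activates bile acids before conjugation, by 0.47 ± 0.11 (adjusted p = 0.0403). Cyp7a1, the rate-limiting enzyme of the classical route, had an estimate of 0.11 ± 0.35 (adjusted p = 0.934). Among 20 bile acid, sterol and anion transporters, 1 rose and 0 fell. That gene, Slc10a1, the sodium-dependent importer of bile acids on the sinusoidal side of hepatocytes, had 244 to 359.9 CPM (median 321) in vehicle mice and 334 to 732 CPM (median 442) in treated mice, a change of 0.63 ± 0.14 (adjusted p = 0.0157; without mouse 1, 0.51, adjusted p = 0.125).

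In the list of 16 steroid hormone genes 2 rose, Cyp17a1 and the sulfotransferase Sult2a8. Of the 66 genes, Sult2a8 lost the largest share of its log2 fold change without mouse 1. It had 59.6 to 249 CPM (median 141) in vehicle mice, and in the treated group 969 CPM in mouse 1 and 149.7 to 309.7 CPM in the other 7. The log2 fold change of 1.32 ± 0.32 (adjusted p = 0.0429) became 0.86 (adjusted p = 0.37) without it. The steroid dehydrogenase Hsd3b5, singled out after its values were seen, showed the same mouse in a stronger form, at 85.9 CPM in mouse 1 and at most 2.9 CPM in the other 15. Its estimate was 3.61 with all mice and -0.96 without mouse 1, and neither passed (adjusted p = 0.218 and 0.953).

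Of 41 cytochrome P450 genes of families 1 to 3, 1 rose, 0 fell and 33 estimates were above 0, with a median of 0.34 (0.29 without mouse 1, when 0 were called). Cyp2c29 went from 186 to 654 CPM (median 241) to 373 to 1253 CPM (median 628), with overlap between the groups and a log2 fold change of 1.15 ± 0.28 (adjusted p = 0.0411). Cyp2c37 and Cyp2c54 had larger estimates, 1.38 and 1.34, that did not pass (adjusted p = 0.0522 and 0.069). Cyp2c genes, Ces1c, Sult2a8 and Serpina1d have close paralogs, and how reads shared by paralogs were counted is not given in the sources used here, so the values of single members are uncertain. Among conjugating and hydrolyzing enzymes, Sult1d1 (0.67 ± 0.13, adjusted p = 0.0117), Gstt3 (0.73 ± 0.18, adjusted p = 0.0429) and Ces1c (0.50 ± 0.11, adjusted p = 0.0157) rose, and none of them was called without mouse 1. Sult1d1, a sulfotransferase of small phenols, had 80.5 to 127 CPM (median 105) in vehicle mice and 133 to 212 CPM (median 159) in treated mice, with no overlap.

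**Figure D3:**
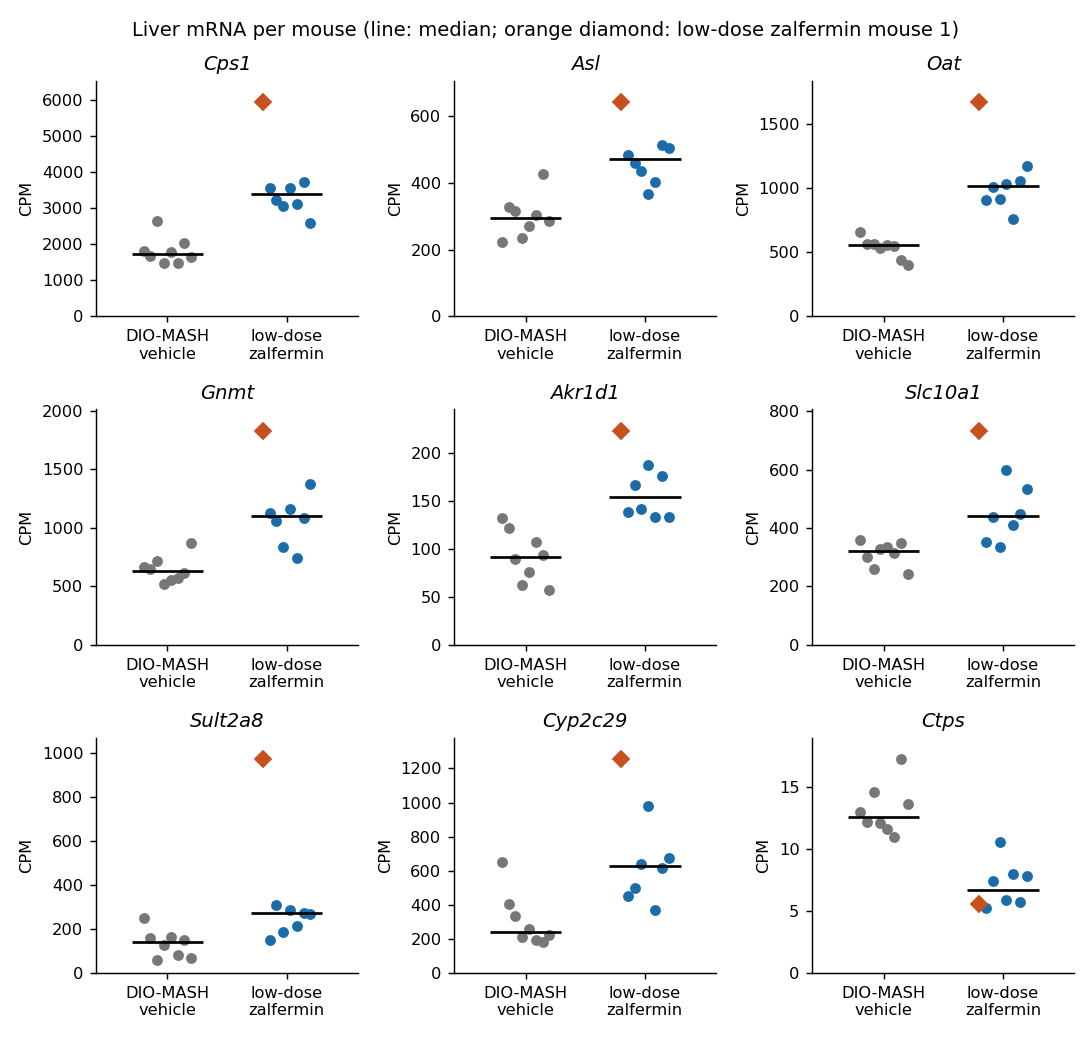
Level in CPM (y axis) of 9 further called genes in each of 8 DIO-MASH vehicle mice (gray) and 8 low-dose zalfermin mice (blue, mouse 1 as an orange diamond), with the group median as a line. Mouse 1 is the highest treated mouse for the 8 genes that rose, and farthest from the rest for Sult2a8, and Ctps is lower in every treated mouse than in any vehicle mouse.

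Several genes of secreted proteins rose. Igfbp2, a binding protein of insulin-like growth factors, had 199.8 to 496 CPM (median 257) in vehicle mice and 270.0 to 610.3 CPM (median 496) in treated mice, with a log2 fold change of 0.70 ± 0.16 (adjusted p = 0.0195; without mouse 1, 0.69, adjusted p = 0.0882). It was the only one of 19 genes of the growth hormone and IGF axis that was called. F7 (coagulation factor VII), Proz (protein Z) and Serpind1 (heparin cofactor II) rose by 0.56 ± 0.14, 0.39 ± 0.09 and 0.48 ± 0.11 on the log2 scale (adjusted p = 0.0429, 0.0238 and 0.0343). Without mouse 1 their adjusted p was 0.246, 0.149 and 0.19. Lipc, the hepatic lipase, was the only one of 27 secreted hepatocyte factors called (0.46 ± 0.11, adjusted p = 0.0409), with 104 to 158 CPM (median 139.8) in vehicle mice, 168 to 229.7 CPM (median 179) in treated mice and no overlap. Gpld1, the phospholipase that cleaves glycosylphosphatidylinositol anchors, rose by 0.49 ± 0.10 (adjusted p = 0.0133), and Dpp4, the peptidase that degrades glucagon-like peptide 1, by 0.32 ± 0.07 (adjusted p = 0.0157). Cnmd (chondromodulin) had a large change at a low level, from 0.706 to 2.46 CPM (median 1.18) to 1.66 to 7.06 CPM (median 4.29), with a log2 fold change of 1.71 ± 0.34 (adjusted p = 0.0117). Lipc, Gpld1, Dpp4 and Cnmd were not called without mouse 1 either.

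Beside Unc119 and Ctps, 5 genes fell, and none of the 5 was called without mouse 1. Scamp5, a secretory carrier membrane protein known mostly from neurons, had 30.2 to 61.5 CPM (median 44.9) in vehicle mice and 17 to 35.9 CPM (median 27) in treated mice, a log2 fold change of -0.75 ± 0.16 (adjusted p = 0.0157). Limk1, a kinase of the actin regulator cofilin, fell as well, with a log2 fold change of -1.01 ± 0.25 (adjusted p = 0.0448). Tc2n had one of -0.71 ± 0.16 (adjusted p = 0.0223), and the F-box gene Fbxw9 one of -0.38 ± 0.08 (adjusted p = 0.0166). The medians of Fbxw9 were 32.2 CPM in vehicle mice, 24.1 CPM in low-dose and 21 CPM in high-dose zalfermin mice, and 36 CPM in chow-fed mice. Meltf (melanotransferrin) averaged under 1 CPM and is named after its values were seen. It had 0.483 to 3.12 CPM (median 1.03) in vehicle mice and 0 to 0.557 CPM (median 0.274) in treated mice, a fitted log2 fold change of -2.26 ± 0.56 (adjusted p = 0.0429) that rests on few reads.

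Of the 6 genes of FGF21 and its receptors, 0 were called by edgeR, DESeq2 or voom, and 1 was higher at an unadjusted p under 0.05 in edgeR. That gene is Klb. The co-receptor gene Klb had 15.2 to 34.9 CPM (median 26.1) in vehicle mice and 27.3 to 46.6 CPM (median 32) in treated mice, with an estimate of 0.41 ± 0.14 (adjusted p = 0.197), and Fgf21 had 1.94 to 6.33 CPM (median 2.78) and 1.09 to 2.97 CPM (median 2.04) (-0.78 ± 0.39, adjusted p = 0.445). Fgfr1, Fgfr2, Fgfr3 and Fgfr4 had estimates of -0.13, 0.00, -0.11 and 0.14 (adjusted p = 0.865, 0.999, 0.892 and 0.687). Of 22 ERK feedback and early response genes 0 were called by edgeR, DESeq2 or voom, and 2 were higher and 1 lower at an unadjusted p under 0.05. Spry4, a feedback inhibitor of ERK signaling, had 4.91 to 7.15 CPM (median 6.5) in vehicle mice and 4.23 to 23.8 CPM (median 8.26) in treated mice (0.84 ± 0.35, adjusted p = 0.341).

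Of 125 genes in 5 lists of lipid and glucose metabolism, edgeR called 0, DESeq2 4 and voom 4, and 15 were higher and 2 lower at an unadjusted p under 0.05 in edgeR. De novo lipogenesis (23 genes), lipid droplets and PPARG targets (21), fatty acid oxidation and ketogenesis (40), cholesterol synthesis and uptake (25), and gluconeogenesis and glycogen (16) had medians of 0.04, -0.06, 0.08, 0.10 and 0.24. In the gluconeogenesis and glycogen list 6 were higher and 0 lower at an unadjusted p under 0.05. Pck1, which commits carbon to gluconeogenesis, had 397 to 1495 CPM (median 1266) in vehicle mice and 908 to 3861 CPM (median 1916) in treated mice (0.73 ± 0.27, adjusted p = 0.251), where the low value is that of vehicle mouse 7. Mlxipl, the carbohydrate-sensing transcription factor ChREBP, had an estimate of 0.50 ± 0.15 (adjusted p = 0.128), Cyp4a14, a fatty acid omega-hydroxylase and PPARA target, one of 0.88 ± 0.33 (adjusted p = 0.255), and the lipid droplet gene Cidea one of -0.92 ± 0.36 (adjusted p = 0.29). Of 32 ATF4 targets and serine synthesis genes, 26 estimates were below 0 and 9 were lower at an unadjusted p under 0.05, whereas the 1 gene called by edgeR, Shmt2, rose. Voom called 3 genes of this list lower and 1 higher. Psat1, a serine synthesis enzyme, had a mean level of 3.79 CPM in vehicle and 1.58 CPM in treated mice (-1.26 ± 0.34, adjusted p = 0.0672).

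Of 156 genes in 8 lists of matrix, immune cells and proliferation, edgeR called 0, DESeq2 2 and voom 10 (all 10 lower), and 39 were lower and 6 higher at an unadjusted p under 0.05 in edgeR. Of 23 collagen genes 21 estimates were below 0, with a median of -0.48 (-0.37 without mouse 1). Col3a1, a fibrillar collagen of scar tissue, had 256 to 507 CPM (median 417) in vehicle mice and 82.5 to 331 CPM (median 216) in treated mice (-0.90 ± 0.31, adjusted p = 0.183), and Col5a2 had 14.5 to 27.3 CPM (median 24.2) and 5.63 to 17.6 CPM (median 12.6) (-0.91 ± 0.25, adjusted p = 0.074). The 52 other matrix genes had a median of -0.29, the 19 genes of lipid-associated and monocyte-derived macrophages -0.40, the 7 MHC class II genes -0.45 and the 22 cell cycle genes -0.59, of which 12 were lower at an unadjusted p under 0.05. Mouse 1 was the lowest of the 8 treated mice for many of these genes, as for Col3a1 and Cd74, the class II chaperone (174 CPM in mouse 1, 408 to 540.1 CPM in the other 7).

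Markers of other cell types had estimates in both directions. Of 7 B cell, 12 Kupffer cell, and 15 T and natural killer cell markers tested, 0 were called by edgeR, DESeq2 or voom. All 7 B cell markers had negative estimates, with a median of -1.48 (-1.33 without mouse 1), and all 7 were lower at an unadjusted p under 0.05 although none was called. Their summed level ranged from 5.42 to 205 CPM in vehicle mice (median 39.95) and from 5.56 to 72.7 CPM in treated mice (median 13.2), so the groups overlapped and the highest sums were those of vehicle mice. In contrast, 11 of 12 Kupffer cell markers had positive estimates, with a median of 0.38 (0.28 without mouse 1), and 4 were higher at an unadjusted p under 0.05. Marco, a scavenger receptor of resident macrophages, ranged from 0.079 to 39.4 CPM among treated mice and from 0 to 3.54 CPM among vehicle mice (2.85 ± 0.99, adjusted p = 0.196). The Kupffer sum overlapped, at 711 to 1146 CPM (median 1028) in vehicle and 785 to 1272 CPM (median 985) in treated mice, so its median was lower in treated mice while most single markers had positive estimates. T and natural killer cell markers summed to 43.04 to 70.2 CPM in vehicle mice and 13.3 to 46.95 CPM in treated mice, with a small overlap, and 1 of the 15 was lower at an unadjusted p under 0.05. Of 16 stellate cell and myofibroblast markers 15 had negative estimates, as had all 10 cholangiocyte markers. All 7 red blood cell markers had positive estimates, and of 18 sinusoidal endothelial markers 10 were positive and 8 negative. The sum of 7 adipocyte markers was 1695 to 2712 CPM in vehicle mice and 2367 to 4743 CPM in treated mice, highest in mouse 1. Hepatocyte markers summed to a median of 77870 CPM in vehicle and 83370 CPM in treated mice, and all 10 had positive estimates (median 0.25). These 10 include Cps1, itself a called rise, so their sum is not separate from the called genes. The part of these values in the rises of hepatocyte genes was not tested.

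**Figure D4:**
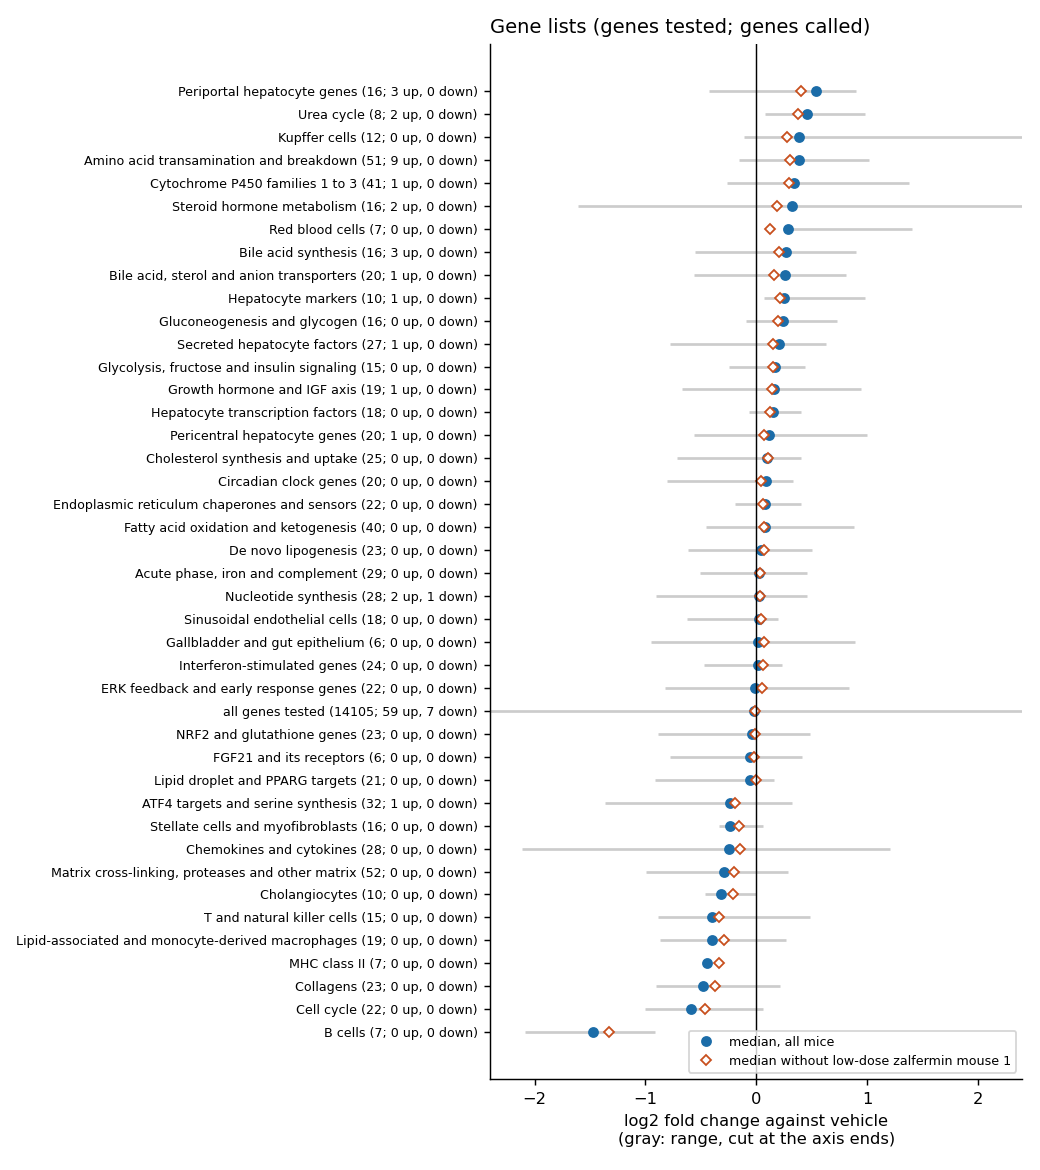
Median log2 fold change (x axis) of low-dose zalfermin against DIO-MASH vehicle for each gene list with at least 5 genes tested (y axis, with the genes tested and called), with all mice (blue) and without low-dose zalfermin mouse 1 (open orange diamonds). Gray lines span the lowest to the highest gene and are cut at the ends of the axis. Medians of the periportal, urea cycle and amino acid lists lie above 0, and those of the B cell, cell cycle and collagen lists below 0. Leaving out mouse 1 moves most medians toward 0.

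Sample numbers form 4 runs of nearby values, called series here, and no source says what separates them. Low-dose zalfermin and vehicle mice numbered 3 and 2 in the first series, 2 and 3 in the second and 3 and 2 in the third, and 1 vehicle mouse was in the fourth. All 59 rises were higher and all 7 falls lower in the treated mice within each of the first 3 series. The 66 genes were called on these same mice, so that choice favors agreement within the series, which is no independent check. The median difference of the rises in mean log2 CPM was 0.66, 0.43 and 0.55, and that of the falls was -0.80, -0.67 and -0.79. Mouse 1 belongs to the first series. With the series as a covariate 123 genes were called, all 66 among them.

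The same dose of zalfermin was also given on top of low-dose semaglutide (3 ug/kg), which allows the 66 genes to be read in other mice. Those mice entered the same fit and so its shared estimate of spread, and leaving 1 of them out moved the count of 66 to between 42 and 138, so the calls are not wholly separate from them. The labels call this group zalfermin + semaglutide and give no dose. The text that accompanies the series calls both doses high, whereas the study's methods give low doses, which are used here. In 8 combination mice against 8 low-dose semaglutide mice, on the same diet and of the same strain, 272 genes were higher (1.93%) and 322 lower (2.28%). Of the 59 rises, 56 had positive estimates and 31 were called higher (52.5%), and of the 7 falls all 7 had negative estimates and 6 were called lower (85.7%). The median log2 fold change of the rises was 0.44, beside 0.56 for low-dose zalfermin alone, and over all genes it was -0.02 in both comparisons. The rises were chosen in the comparison of low-dose zalfermin alone, which favors the larger value there. Low-dose semaglutide mouse 6 had a mean Spearman correlation of 0.967 with its group across genes, and the other 7 had 0.981 to 0.986. The study's methods leave out an outlying mouse of this group, and the sources used here do not say which, so all were kept. Without mouse 6, 555 genes were higher (3.93%) and 623 lower (4.42%), and 47 of the 59 rises (79.7%) and 6 of the 7 falls were called in the same direction.

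Among the 66 genes, those of smallest adjusted p on top of semaglutide were F7 (0.87 ± 0.14, adjusted p = 7.8e-05), Igfbp2 (0.96 ± 0.16, 8.8e-05), Sult1d1 (0.79 ± 0.13, 0.00016), Scamp5 (-0.96 ± 0.16, 0.00018) and Ces1c (0.62 ± 0.11, 0.00021). Limk1 was lower there as well (-1.53 ± 0.27, adjusted p = 0.00026). Of the genes called without mouse 1, Cyp17a1, Hpd, Serpina6 and Unc119 were called again, with log2 fold changes of 1.68 ± 0.36 for Cyp17a1 (adjusted p = 0.00256), 0.69 ± 0.17 for Hpd (0.00872), 0.51 ± 0.15 for Serpina6 (0.04) and -0.77 ± 0.17 for Unc119 (0.00341). Ttc38 had 0.19 ± 0.09 (adjusted p = 0.263), and without low-dose semaglutide mouse 6 it passed (adjusted p = 0.0339).

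Some genes had estimates near 0 on top of semaglutide. Oat had -0.04 ± 0.21 (adjusted p = 0.961), Slc38a3 -0.09 ± 0.14 (0.812), Pdk2, a kinase that inhibits pyruvate dehydrogenase, -0.01 ± 0.11 (0.975), Shmt2 0.01 ± 0.07 (0.962) and Dpp4 0.04 ± 0.07 (0.829). The difference between both zalfermin effects, tested as an interaction, was -0.73 ± 0.20 for Slc38a3 (adjusted p = 0.288) and -1.03 ± 0.30 for Oat (adjusted p = 0.36), so neither was shown to differ. Of the 66 genes 0 passed for the interaction in edgeR, voom or DESeq2 (which gave 6 of them no adjusted p), and 11 of them had an unadjusted p under 0.05 in edgeR. The 66 genes were chosen for their change with low-dose zalfermin alone, which enters the interaction. That choice favors smaller changes on top of semaglutide, so the estimates near 0 and the 11 genes are no evidence of a difference.

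**Figure D5:**
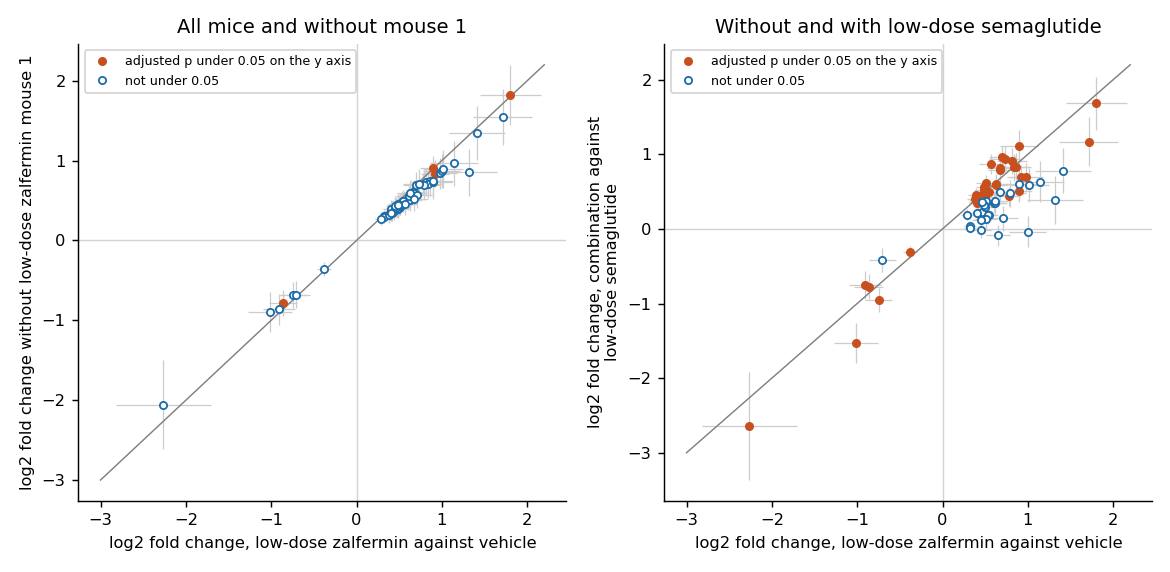
Log2 fold change of the 66 called genes for low-dose zalfermin against DIO-MASH vehicle (x axis, 8 mice a group) against the same without mouse 1 (left, y axis) and against that of combination over low-dose semaglutide mice (right, y axis), with standard errors in gray and the line of equal values. Filled orange points pass the threshold on the y axis, 6 genes on the left and 37 on the right, and 3 rises (Oat, Slc38a3 and Pdk2) lie below 0 on the right.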

How the data were processed

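Livers of 56 mice (8 in each of 7 groups) were sequenced, and 16 are compared here. The authors deposited raw counts of reads per gene (21935 genes, whole numbers, not normalized). Per the study's methods, stranded mRNA libraries were aligned with STAR to GRCm38, and the submitters' processing notes name Trim Galore 0.6.4 and Salmon 1.9.0. The counting step, and its treatment of strand and shared reads, are not given in the sources used here.

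A gene was tested if at least 3 mice had at least 5 reads (14105 genes). edgeR 4.0.16 in R 4.3.3 fitted all 7 groups together (TMM, no covariate, 2-sided quasi-likelihood test), with Benjamini-Hochberg adjustment over every gene tested and a threshold of 0.05. The standard error is the absolute log2 fold change over the root of F. CPM used normalized library sizes, log2 CPM a prior count of 2, and summed marker CPM the raw totals. Depth was 7393654 to 16434379 counted reads per mouse, so genes near 1 CPM rest on few reads. Replicates are separate mice. Alternatives were DESeq2 1.42.0, limma 3.58.1 (voom with quality weights), DESeq2's size factors, a filter of 1 read or of 10 reads in 8 mice, the number series as a covariate, the 16 mice alone, and each mouse left out in turn. A further 3 fits were added after the data were seen. Steps were tested on simulated counts. Coordinates are GENCODE M21 (GRCm38), matched by identifier for all 66 called genes. One called gene that the naming rule took is not reported here. Figures used matplotlib 3.10.9.

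The mice and the 44 gene lists (877 genes, 834 tested) were chosen with earlier results of these data known, so no list is independent evidence. The naming rule took genes called with and without low-dose zalfermin mouse 1, the 15 largest rises and all falls averaging 1 CPM or more, the 10 smallest adjusted p among genes called in both zalfermin comparisons, called list members, FGF21 and its receptors, and the 2 largest changes of each list without a call. Genes outside it were chosen after their values were seen. They are the called genes Dpp4, Dpyd, Dpys, Gpld1, Gstt3, Meltf, Pdk2, Sardh, Serpina1d, Serpind1, Slc38a3, Suox and Upb1, and the genes Arg1, Ass1, Cyp2c37, Cyp2c54, Cyp7a1, Fah, Hsd3b5, Otc and Psat1. The called genes of the closing observations were chosen the same way. Within a group, the most alike pair of libraries had a chi-square 9.42 times its degrees of freedom, so no pair was counted as 1 mouse.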

Additional observations from a re-analysis of the deposited data

Results flagged for a closer look

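On the log2 CPM scale, 206 checks of the named genes and the depth were made, each over the 8 mice of 1 group. In 25 of them 1 mouse was apart from the other 7 by Dixon's criterion. Chance gives about 1 in 20 for independent checks, but genes measured in the same mice are not independent. Many of the genes were also named because they were called with mouse 1 included, so that rate is no yardstick here. In 17 of the 25 the mouse apart was low-dose zalfermin mouse 1. It was the highest of its group for Ttc38 (160.1 CPM, others up to 132.5), Sult2a8 (969 CPM, others up to 309.7), Cps1 (5920 CPM, others up to 3725), Gls2 (400.6 CPM, others up to 252), F7 (118 CPM, others up to 79.7), Proz (482.5 CPM, others up to 392.9), Pigr (3048 CPM, others up to 2246), Slc27a5 (1428 CPM, others up to 1104) and Cela1, a gene of the pancreas list (16.43 CPM, others up to 9.95). It was the lowest for Unc119 (5.295 CPM, others from 7.95), the glutathione transferase Gsta1 (0.4073 CPM, others from 1.82), the acute phase gene Lcn2 (16.7 CPM, others from 74.5), the stellate cell marker Pdgfrb (17.99 CPM, others from 34.7), the class II genes H2-DMa (7.671 CPM, others from 14.5) and Cd74 (173.7 CPM, others from 408.2), the endothelial marker Cd34 (3.394 CPM, others from 7.57) and the cyclin Ccnb2 (0.06788 CPM, others from 0.856).

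The remaining 8 were spread over other mice. Low-dose zalfermin mouse 4 was the lowest for Serpina6 (327.8 CPM), mouse 7 the highest for the B cell gene Ms4a1 (4.585 CPM) and mouse 8 the highest for the lipogenic gene Pnpla3 (4.806 CPM). Vehicle mouse 7 was the highest for Cnmd (2.456 CPM) and the lowest for Pck1 (397.4 CPM, others from 1075). Vehicle mouse 2 was the highest for the interferon-stimulated gene Xaf1 (16.33 CPM), mouse 5 the lowest for Fbxw9 (26.08 CPM) and mouse 8 the highest for Slc27a5 (885.1 CPM).

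The effect of low-dose zalfermin differed between mice without and with low-dose semaglutide for 2 genes, tested as an interaction in edgeR, and neither is among the 66. Cidea, a lipid droplet protein, had a median of 47.2 CPM in vehicle and 21.8 CPM in low-dose zalfermin mice (-0.92 ± 0.36 on the log2 scale), 38.5 CPM in low-dose semaglutide and 1.04 CPM in combination mice (-4.50 ± 0.46). The interaction was -3.587 on the log2 scale (adjusted p = 0.00127). Themis, known from T cell development, had medians of 32, 18.6, 23.7 and 1.53 CPM in the same order, with an interaction of -2.754 (adjusted p = 0.0216).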

How the results depend on the processing

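No paired analysis was possible because the labels give no replicate number and state no pairing. Neighboring sample numbers often hold 1 mouse of each group, but no source says that they mark a block, and the number series was the only such term fitted. Direction was kept by all 66 genes in every fit run, which their choice from the same mice favors. The number called was 66 and rose to 211 with DESeq2 (16 of the 66 got no adjusted p there, and the other 50 were called), 305 with voom and quality weights, 123 with the number series as a covariate and 145 with the 16 mice alone. It was 58 with DESeq2's size factors, 49 without a filter beyond 1 read and 53 with 10 reads in 8 mice. Leaving out 1 mouse gave 6 to 95 calls. It fell by more than 1.5 times without low-dose zalfermin mouse 1 (6), 3 (36), 5 (31), 7 (31) or 8 (38), and without vehicle mouse 1 (38), 2 (31), 3 (36), 4 (23), 6 (31), 7 (36) or 8 (21). Mice outside both groups enter through the shared estimate of spread: it was 42 without combination mouse 1 or low-dose semaglutide mouse 1 or 4, 43 without combination mouse 7 or low-dose semaglutide mouse 3 or 7, and 138 without low-dose semaglutide mouse 6. Fits chosen after seeing the data called 78 (DESeq2 without mouse 1), 217 (voom without mouse 1, 65 of the 66) and 34 (edgeR without mouse 1 and low-dose semaglutide mouse 6). The cause of these shifts was not tested.

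On top of low-dose semaglutide the count was 594 and rose to 1416 with voom and 1178 without low-dose semaglutide mouse 6. It was 397 to 1178 with 1 mouse left out. Of genes called in both comparisons in the same direction there were 37, or 90 with DESeq2, 173 with voom and 67 with the number series, 29 without both mice named above, and 5 to 99 with 1 mouse left out (5 without low-dose zalfermin mouse 1, 99 without low-dose semaglutide mouse 6, 19 to 24 without low-dose zalfermin mouse 3, 5, 7 or 8, 14 to 24 without any 1 vehicle mouse, and 20 to 24 without combination mouse 1 or 3 or low-dose semaglutide mouse 1, 3, 4, 7 or 8). Interaction calls numbered 2, and 14 with DESeq2, 29 with voom and 1 with the number series, and 1 to 7 with 1 mouse left out (7 without low-dose semaglutide mouse 6). Without mouse 1 no list median farther than 0.1 from 0 changed sign. Genes near 1 CPM rest on few reads, which limits what could be called among them.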

Other observations

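Hepatocytes near the portal vein and near the central vein differ in their genes. Of 16 periportal genes 3 rose (Gls2, Asl and Pigr, the exporter of immunoglobulin A into bile), with a median log2 fold change of 0.54, or 0.41 without mouse 1. Of 20 pericentral genes 1 rose (Oat), with a median of 0.12, or 0.07 without mouse 1. The lists share genes, as Gls2 and Oat are also calls of the amino acid list and Asl of the urea cycle list. Without mouse 1, 0 genes of the periportal and 0 of the pericentral list were called. Some other called genes encode mitochondrial proteins. Fh1, the fumarate hydratase of the citric acid cycle, had 141 to 193 CPM (median 174) in vehicle mice and 201 to 257 CPM (median 226) in low-dose zalfermin mice, with no overlap and a log2 fold change of 0.41 ± 0.10 (adjusted p = 0.0429). Txn2, the mitochondrial thioredoxin, had the smallest rise of the 59 (0.29 ± 0.07, adjusted p = 0.0429), and its groups were also separate. Pdk2 rose by 0.45 ± 0.11 (adjusted p = 0.0429) and Slc25a23, a mitochondrial carrier, by 0.44 ± 0.11 (adjusted p = 0.0429). Ndrg2, of the N-myc downstream-regulated family, had 718 to 853 CPM (median 779) in vehicle mice and 950.1 to 1520.0 CPM (median 1026) in treated mice, with no overlap (0.49 ± 0.11, adjusted p = 0.0259). Elovl2, an elongase of polyunsaturated fatty acids, rose by 0.50 ± 0.12 (adjusted p = 0.0343), with medians of 634 CPM in vehicle, 845 CPM in low-dose zalfermin, 1161 CPM in high-dose zalfermin and 737 CPM in chow-fed mice. None of these 6 genes was called without mouse 1, at estimates of 0.40, 0.27, 0.44, 0.37, 0.41 and 0.44.

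Short motifs were counted in the 250 bases before the start of genes, on both strands, in RefSeq promoters of GRCm38.p6, as a description. A promoter was matched by symbol for 53 of the 66 called genes. The E-box CACGTG was in 4 of 46 rises (8.70%) and in 6.05% of 27025 promoters, namely those of Acy1, Igfbp2, Pdk2 and Pigr. The ATF4 composite TGATGNAAT, which includes TGATGCAAT, was in 0 of 46 rises and 0 of 7 falls and in 0.825% of all promoters. The ETS motif CCGGAAGT and the cAMP response element TGACGTCA were each in 1 of 7 falls, both times Fbxw9, and in 2.93% and 1.62% of all promoters.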
